A study of Macaca mulatta with 2 samples.

Results

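The secreted regulators of Wnt signalling described here are 9 genes: the secreted frizzled-related proteins SFRP1, SFRP2 and SFRP4, the Dickkopf genes DKK1, DKK2 and DKK3, the Wnt inhibitory factor WIF1, and the R-spondins RSPO1 and RSPO3. They were taken by gene symbol from the count matrices of both libraries, and all 9 were present among 24037 features. The study prepared trabecular meshwork, the filter of beams and cells through which aqueous humour drains from the eye, from rhesus macaques and measured it by droplet single-cell RNA sequencing. The glaucoma library came from monkeys with spontaneous open-angle glaucoma and the normal library from healthy controls, with 1 library per group; no drug, transgene or other agent is named for either, and both were digested with collagenase and made with the same 10x kit. Age and the number of animals behind each library are not given in the sources used here.

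Wnt proteins bind frizzled receptors and the co-receptors LRP5 and LRP6 and, in the canonical route, stabilise beta-catenin. SFRP proteins carry a frizzled-like domain and bind Wnt ligands outside the cell, and WIF1 also binds Wnt ligands. DKK1 and DKK2 bind LRP5 and LRP6, while DKK3 is a divergent member of the Dickkopf family that does not act on them in the same way. R-spondins work in the other direction: through LGR receptors they remove the ligases RNF43 and ZNRF3, which clear frizzled receptors from the membrane. SFRP1 is known in this tissue from human glaucoma, where its level in trabecular meshwork has been linked to raised eye pressure.

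The analysis kept 8301 glaucoma and 5364 normal cells, with median depths of 2745 and 2699 UMIs (unique molecular identifiers, each counting 1 captured RNA molecule). The kept cells held 29774877 UMIs in the glaucoma and 21557258 in the normal library, and 11 kept barcodes occurred in both libraries. Clustering was carried out without the 9 genes among the variable genes, so that none of them could define a cluster, and gave 24 clusters. Levels are given as counts per 1000000 UMIs (CPM) of all cells of a class or cluster, with exact 95% Poisson intervals in brackets. With 1 library per group there is no test of the disease: every interval covers counting error alone, biological spread is unmeasured, and no p-value is given. A gene was called higher or lower in glaucoma where the ratio of CPM was at least 2-fold, its exact 95% interval excluded 1 and at least 100 UMIs were counted in both libraries together; anything else measured was left uncalled. In pooled counts, fewer expressing cells and less RNA per cell cannot be told apart, so shares of cells with a UMI are given beside the levels.

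The trabecular meshwork-like class, led by MYOC, CHI3L1, ANGPTL7 and CYTL1, held 1711 glaucoma and 612 normal cells. MYOC, the meshwork's myocilin gene, stood at 24859 CPM in glaucoma and 33598 CPM in normal cells of this class. Its 3 clusters were filled unequally. Cluster 1 (BMP3, MGARP, CXCL14, MYOC) held 89.6% of the class in glaucoma and 29.1% in normal, whereas cluster 11 (PLA2G2A, CHAD, ANGPTL7, MYOC) held 8.07% in glaucoma and 54.9% in normal. Cluster 15, of the same genes at low depth, held the remaining 2.34% in glaucoma and 16.01% in normal. The stromal fibroblast-like class, 1414 glaucoma and 1845 normal cells, was mostly cluster 0 (PI16, C7, CITED1, C3; 827 and 938 cells) and cluster 3 (GPHA2, KRT19, FBLN1, PTGDS; 546 and 735 cells), with a small EGFL6, ANGPT1 and MOXD1 cluster 14 (22 and 132 cells) and a MIA, THBS4 and MFAP5 cluster 19 (19 and 40 cells). Cluster 3 had 1 meshwork marker and 1 stromal marker among its 10 leading genes, an equal split. Cluster 9 (ITGBL1, BMP3, CCL26, APOE), with 598 glaucoma and 59 normal cells, carried 7 stromal and 5 meshwork markers. However, 0 of its 10 leading genes were on either list. COL8A2, from the corneal endothelium marker list, was among those leading genes, so the cluster was left unnamed.

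Different classes held the highest level of different genes. By the mean of both libraries, and among named classes with at least 50 cells in each, SFRP2, RSPO1 and RSPO3 were highest in trabecular meshwork-like cells and SFRP4 and DKK3 in stromal fibroblast-like cells. SFRP1 was highest in myelinating Schwann cell-like cells, DKK2 in vascular endothelium-like cells and WIF1 in non-myelinating Schwann cell-like cells, while DKK1 was nearly undetected. Macrophage-like and T or NK cell-like cells served as the level that free RNA can give: 1.89% or fewer of the 951 glaucoma and 265 normal immune cells held a UMI of any single one of these genes, at median depths of 2788 and 2456 UMIs.

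**Figure D1:**
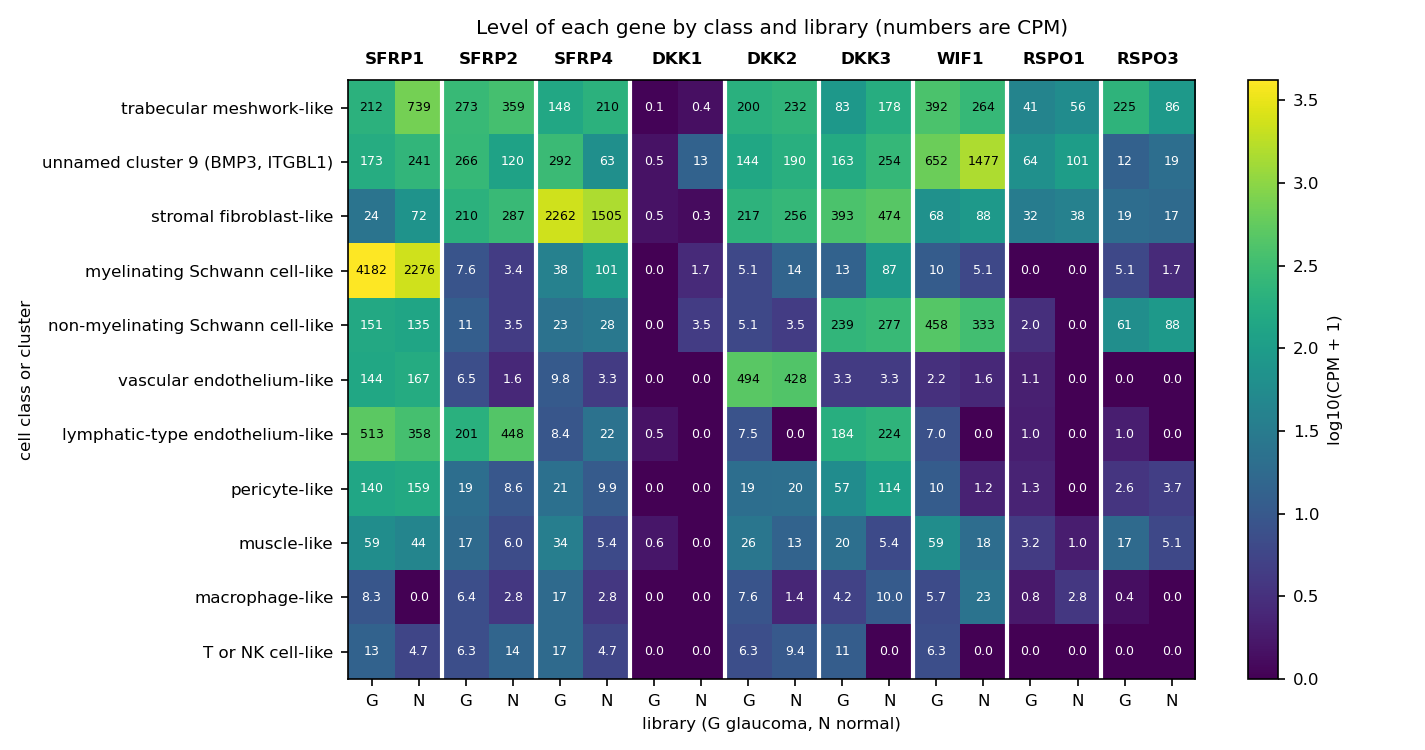
Level of the 9 genes (columns, glaucoma left of normal) in each class with at least 30 cells in both libraries (rows), as CPM printed in each cell and as colour on a log10 scale. SFRP1 peaks in myelinating Schwann cell-like cells (4182 and 2276 CPM), SFRP4 in stromal fibroblast-like cells (2262 and 1505 CPM), and DKK1 is at 3.45 CPM or less in every row except the 59 normal cells of cluster 9 (12.7 CPM, from 2 UMIs).

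In trabecular meshwork-like cells, 8 of the 9 genes had enough UMIs to be compared: RSPO3 was called higher in glaucoma, SFRP1 and DKK3 were called lower, and 5 were uncalled. Over all 7674 genes measured in this class, 5.08% were called higher and 5.6% lower. The median log2 ratio was -0.42 for the 8 genes and -0.01 for all genes. In stromal fibroblast-like cells 0 of 8 genes were called higher, SFRP1 was called lower and 7 were uncalled, where 2.08% of 7565 genes were called higher and 3.97% lower; the medians were -0.26 and -0.10. The counts are small, and the unequal filling of clusters bears on them: with each cluster given the same weight in both libraries, SFRP1 stayed called lower in meshwork-like cells (-1.14), DKK3 came to -0.80 and RSPO3 to 0.27, both uncalled.

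Markers of other cell types moved with these differences in part. In meshwork-like cells the 3 erythroid genes summed to 385 CPM in glaucoma and 12.9 CPM in normal, with 2 of them at 0 in normal, the 6 pericyte markers to 472 and 292 CPM (5 of 6 higher in glaucoma) and the 8 muscle markers to 1261 and 925 CPM (5 of 8 higher), the last 2 lists with no marker at 0. The 10 stromal markers summed to 2062 CPM in glaucoma and 2574 CPM in normal, although 6 of 10 were higher in glaucoma. In stromal fibroblast-like cells the 8 meshwork markers summed to 12420 CPM in glaucoma and 14171 CPM in normal, with 1 of 8 at 0 in each. Here too 5 of 8 were higher in glaucoma. MYOC, at 9412 CPM in glaucoma and 12080 CPM in normal, made up most of that sum. The part of these markers in the calls was not tested.

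**Figure D2:**
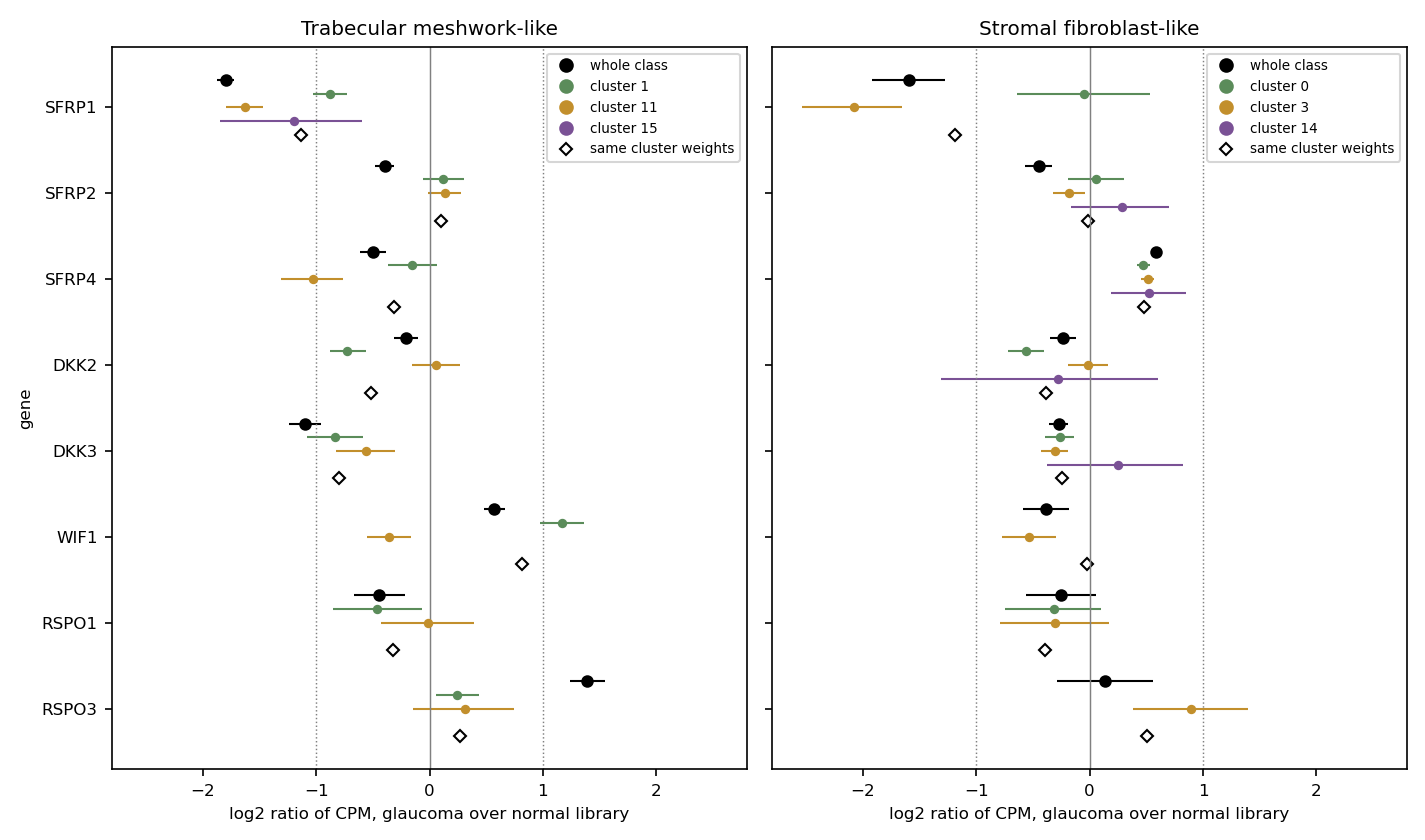
Log2 ratio of CPM, glaucoma over normal, for the 8 measured genes in the trabecular meshwork-like (left) and stromal fibroblast-like (right) classes. Black points are the whole class, coloured points its clusters where at least 100 UMIs were counted, with exact 95% counting intervals, and open diamonds give every cluster the same weight in both libraries; dotted lines mark 2-fold. SFRP1 lies left of 0 in all 3 meshwork-like clusters, while the whole-class RSPO3 ratio of 1.39 lies right of both its cluster ratios (0.24 and 0.31).

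SFRP1, the frizzled-related protein that binds Wnt ligands, stood at 4182 CPM [3983, 4389] in glaucoma and 2276 CPM [2155, 2401] in normal myelinating Schwann cell-like cells, the glia that wrap axons, with MBP and PRX among their markers. It was detected in 62.9% of 202 glaucoma and 56.1% of 239 normal cells of that class. The log2 ratio was 0.88 [0.77, 0.98], under 2-fold; with the stricter cell filter it was 1.09 and called higher. Among classes with at least 50 cells in each library, meshwork-like cells and then cluster 9 came next in both libraries. Vascular endothelium-like cells (144 and 167 CPM), non-myelinating Schwann cell-like cells (151 and 135 CPM) and pericyte-like cells (140 and 159 CPM) followed with overlapping intervals. Lymphatic-type endothelium-like cells, of which only 33 were normal, had 513 CPM in glaucoma and 358 CPM in normal.

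In trabecular meshwork-like cells SFRP1 stood at 212 CPM [204, 221] in glaucoma and 739 CPM [714, 763] in normal, a log2 ratio of -1.80 [-1.87, -1.72]. A UMI was found in 46.5% of glaucoma and 71.2% of normal cells. After every cell was thinned to 1000 UMIs, which left out 16 glaucoma and 11 normal cells, the shares were 15.8% and 36.9%. The order of the libraries was thus the same at equal depth. The number of UMIs per positive cell differed too, 2.86 in glaucoma and 8.02 in normal.

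All 3 meshwork-like clusters had less SFRP1 in glaucoma. Cluster 11 had 282 CPM [253, 314] in glaucoma and 874 CPM [843, 906] in normal (log2 ratio -1.63), where 7.09% of 4417 genes were called lower. Cluster 15 had 304 CPM [200, 443] in 40 glaucoma cells and 697 CPM [584, 825] in 98 normal cells (-1.20), where 3.86% of 285 genes were called lower. The difference was smaller in cluster 1, with 203 CPM [194, 212] in glaucoma and 373 CPM [340, 409] in normal (-0.88, uncalled). Within each library the PLA2G2A and CHAD-led cluster 11 therefore held more SFRP1 than the BMP3 and MGARP-led cluster 1. SFRP1 was called lower in the class under all 14 alternative settings tried, though dropping the minimum count, among these, could not change the ratio.

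The lower call of SFRP1 in stromal fibroblast-like cells, 23.9 CPM [19.4, 29.1] in glaucoma and 72.1 CPM [66.1, 78.5] in normal, came from cluster 3, which had 24.3 and 103 CPM (log2 ratio -2.08 [-2.53, -1.66]; 4.51% of 5606 genes were called lower there). Cluster 0 had 23.1 CPM in glaucoma and 23.8 CPM in normal. This call is not firm: with libraries clustered separately the class ratio was 0.14, with neighbours balanced between libraries 1.10, and at clustering resolutions of 0.5 and 2 it was 1.17 and 0.29.

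SFRP2, the second frizzled-related protein, was made by meshwork-like and stromal cells alike. Meshwork-like cells had 273 CPM [263, 283] in glaucoma and 359 CPM [342, 377] in normal, and stromal fibroblast-like cells had 210 CPM [196, 224] and 287 CPM [275, 300]. Neither ratio reached 2-fold (-0.40 and -0.45), and the stromal one kept its direction in 9 of 14 settings. The libraries were closer still within some clusters: 251 and 231 CPM in cluster 1, 452 and 412 CPM in cluster 11, and 123 and 118 CPM in cluster 0. In stromal cluster 3, by contrast, SFRP2 was lower in glaucoma, with the interval of its log2 ratio below 0. With equal cluster weights the meshwork ratio was 0.10.

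The subtype with the most SFRP2 was stromal cluster 14, with 1200 CPM [896, 1574] in 22 glaucoma cells and 987 CPM [899, 1082] in 132 normal cells; a single barcode gave 48.1% of those glaucoma UMIs. SFRP2 was more even across meshwork-like clusters than across stromal ones. Outside the stroma it appeared in lymphatic-type endothelium-like cells, at 201 CPM in glaucoma and 448 CPM in normal (log2 ratio -1.16 [-1.63, -0.65]), with 33 normal cells of which 1 gave 32.5% of the UMIs; 4.82% of 3109 genes were called lower in these cells. In cluster 9 it was called higher, 266 CPM in glaucoma and 120 CPM in normal (1.14 [0.48, 1.88]), from 19 normal UMIs, where 5.01% of 2914 genes were called higher.

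SFRP4, the frizzled-related protein of stromal fibroblasts here, marked that class in both libraries. It stood at 2262 CPM [2217, 2309] in glaucoma and 1505 CPM [1477, 1533] in normal stromal fibroblast-like cells, and 83.0% and 75.2% of the cells held a UMI. The class held 79.4% of all SFRP4 UMIs in glaucoma and 90.7% in normal. The log2 ratio of 0.59 [0.55, 0.63] was under 2-fold.

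The 3 larger stromal clusters agreed in order. Cluster 0 had 2819 CPM in glaucoma and 2031 CPM in normal, cluster 3 had 1767 and 1240 CPM, and cluster 14 had 2031 and 1410 CPM. Cluster 19 (MIA, THBS4, MFAP5) was apart, with 131 CPM [42.7, 307] in 19 glaucoma cells and 263 CPM [170, 388] in 40 normal cells. When the stroma was cut more finely, at resolution 2, the largest level was in a PI16 and PTGDS cluster of 390 glaucoma and 96 normal cells, at 3680 and 3255 CPM. Another fine cluster (C3, CAPN6, ATP13A5; 46 and 606 cells) had 1184 CPM in glaucoma and 2118 CPM in normal, so the direction was not shared by all fine clusters.

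Meshwork-like cells had far less SFRP4, 148 CPM in glaucoma and 210 CPM in normal (log2 ratio -0.50; -1.497 and called lower with libraries clustered separately). Cluster 11 was called lower, 110 CPM [92.0, 130] in glaucoma and 225 CPM [209, 241] in normal. Cluster 9 was called higher, 292 CPM [268, 316] in glaucoma and 63.4 CPM [30.4, 117] in normal, from 10 normal UMIs in 5 cells. At resolution 2 a GPHA2, CHI3L1 and PROK2 cluster that carried meshwork markers had 1665 and 1589 CPM, so the boundary between both classes is not sharp for this gene.

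**Figure D3:**
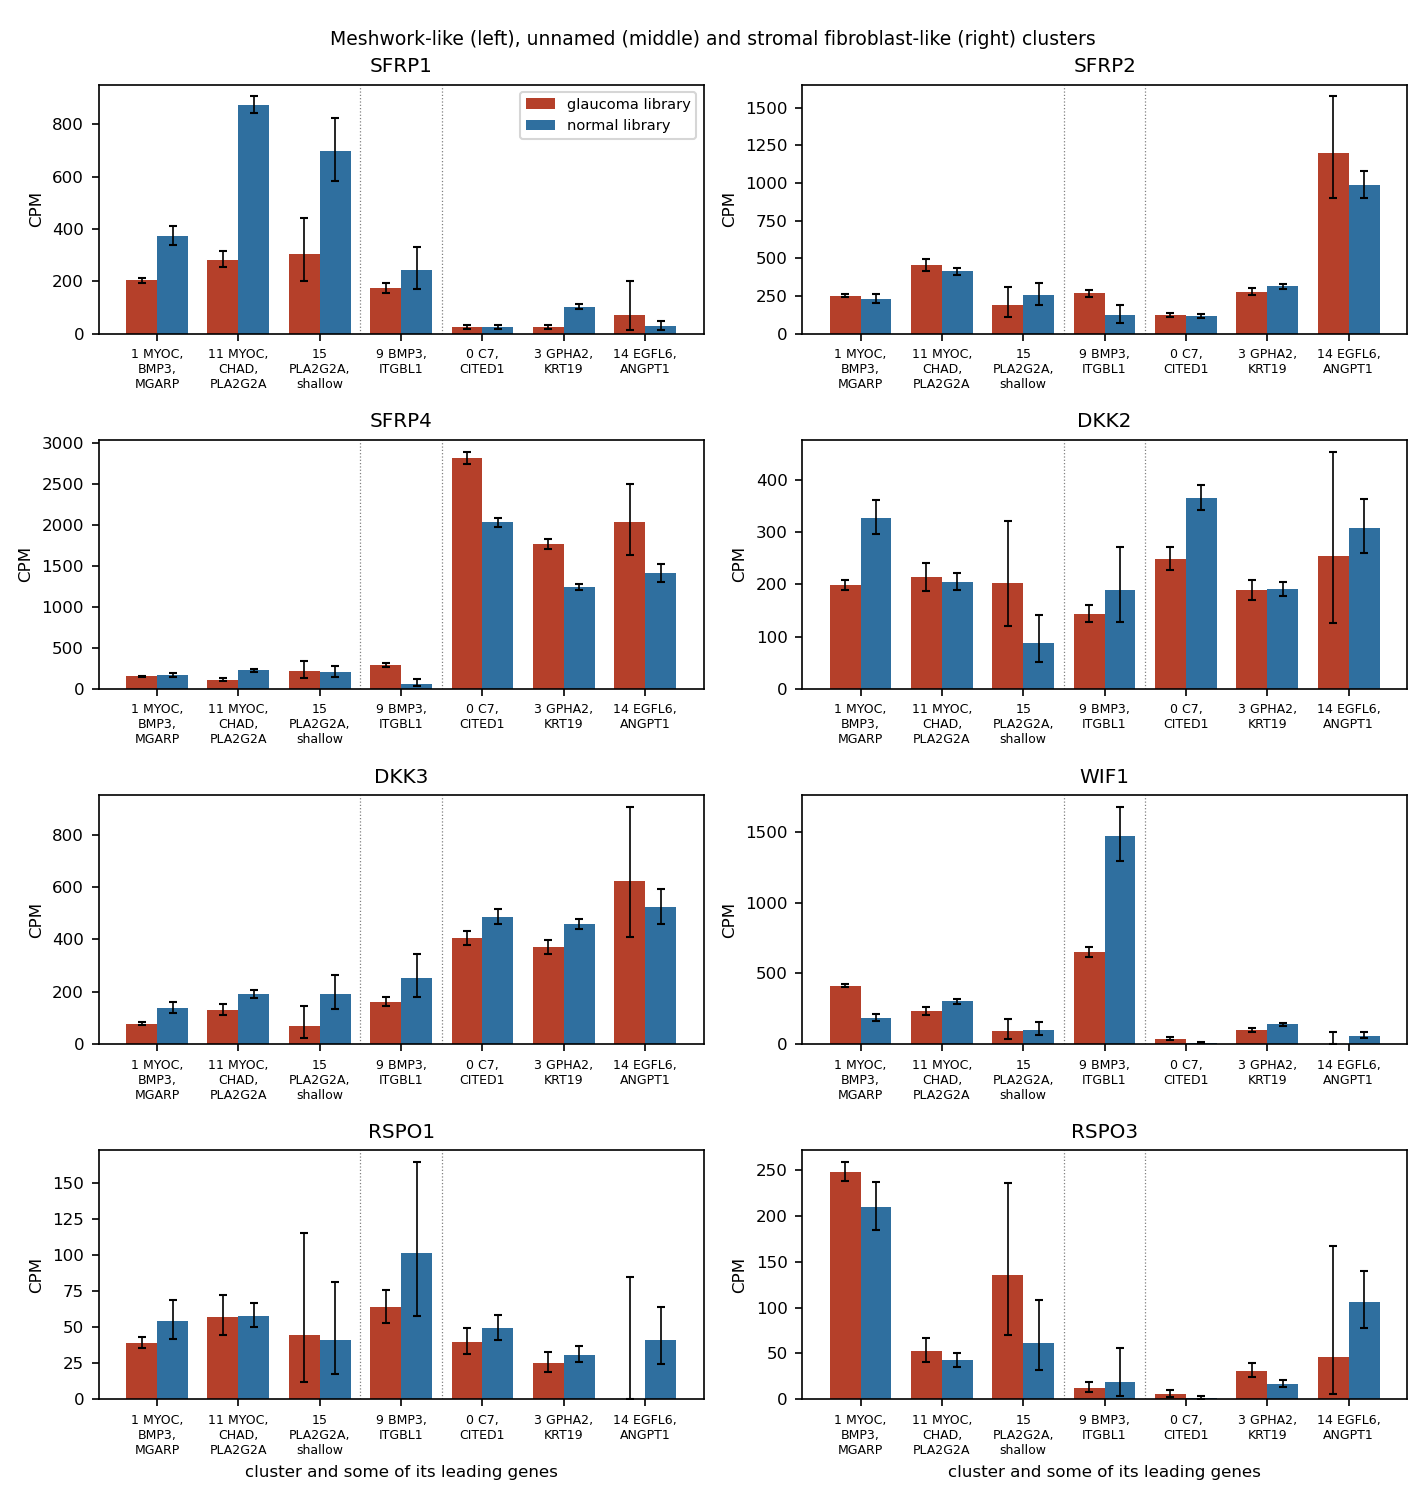
CPM of 8 genes in the meshwork-like clusters (left), the unnamed cluster 9 (middle) and 3 stromal fibroblast-like clusters (right), glaucoma bar left of normal bar, with exact 95% Poisson intervals. SFRP1 is lower in glaucoma in clusters 1, 11 and 15, SFRP4 is high in clusters 0, 3 and 14, and RSPO3 is highest in cluster 1 in both libraries (248 and 210 CPM).

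DKK1, the best studied Dickkopf antagonist, was nearly absent: 8 UMIs in 7 of 8301 glaucoma cells and 10 UMIs in 8 of 5364 normal cells. No comparison was made for it.

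DKK2, which binds the LRP co-receptors, was above 100 CPM in both libraries in 3 named classes and in cluster 9 (144 CPM in glaucoma and 190 CPM in normal), while muscle-like cells had 25.5 and 13.2 CPM. Vascular endothelium-like cells had the highest level, 494 CPM [463, 528] in glaucoma and 428 CPM [378, 484] in normal. Stromal fibroblast-like cells had 217 and 256 CPM and meshwork-like cells 200 and 232 CPM, with overlapping intervals between stroma and meshwork in each library. No ratio reached 2-fold in these classes.

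Among the vessels, the small FCN3, MECOM and GJA5-led cluster 16 had 881 CPM [730, 1054] in 61 glaucoma cells and 1034 CPM [825, 1281] in 58 normal cells, above the VWF and PLAT-led cluster 6, at 464 and 335 CPM. GJA5 encodes a connexin of arterial endothelium. Lymphatic-type endothelium-like cells had 7.45 CPM in glaucoma and 0 UMIs in the 33 normal cells. Within the meshwork, cluster 1 had 198 CPM [190, 208] in glaucoma and 328 CPM [296, 362] in normal (log2 ratio -0.72 [-0.88, -0.56]), while cluster 11 had 213 and 205 CPM.

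DKK3, the divergent Dickkopf, was highest in stromal fibroblast-like cells, 393 CPM [374, 412] in glaucoma and 474 CPM [459, 490] in normal, with a UMI in 55.2% and 67.1% of cells. The log2 ratio in this class was -0.27. Its shares are not at equal depth: median depth was 2055 and 2234 UMIs in cluster 0, and 3441.5 and 5406 UMIs in cluster 3. Non-myelinating Schwann cell-like cells came next, with 239 and 277 CPM.

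In meshwork-like cells DKK3 was called lower, 83.1 CPM [77.7, 88.7] in glaucoma and 178 CPM [166, 190] in normal (log2 ratio -1.10 [-1.24, -0.96]), and 31.2% of glaucoma and 59.6% of normal cells held a UMI. These shares are not at equal depth. Median depth was 5530 UMIs in glaucoma and 6588.5 in normal in cluster 1, and 8281.5 and 9833 UMIs in cluster 11. In cluster 15 it was 1958 and 1765.5 UMIs. All 3 clusters had less in glaucoma: 77.2 and 138 CPM in cluster 1, 130 and 192 CPM in cluster 11, and 67.6 and 191 CPM in cluster 15. None of the larger clusters was 2-fold apart by itself (-0.84 in cluster 1 and -0.56 in cluster 11), and with the stricter cell filter the class ratio was -0.89, uncalled. Pericyte-like cells were also called lower, 56.6 CPM in glaucoma and 114 CPM in normal (-1.01 [-1.56, -0.47]), where 4.88% of 2522 genes were called lower. That call held in 8 of 14 settings.

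WIF1, which binds Wnt ligands, was spread over meshwork, glia and the unnamed cluster. Cluster 9 had the highest level, 652 CPM [617, 688] in glaucoma and 1477 CPM [1294, 1680] in normal (log2 ratio -1.18 [-1.38, -0.97]), where 9.03% of 2914 genes were called lower. The shares of positive cells there were 44.6% [40.6, 48.7] and 42.4% [29.6, 55.9], and 1 of 59 normal barcodes gave 18.9% of the normal UMIs. Median depth there was 3261 UMIs in glaucoma and 1669 UMIs in normal, and after thinning to 1000 UMIs, which left out 32 glaucoma and 11 normal cells, the shares were 27.4% [23.7, 31.3] and 39.6% [25.8, 54.7]. UMIs per positive cell, without thinning, were 4.89 in glaucoma and 9.32 in normal.

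In meshwork-like cells WIF1 stood at 392 CPM [380, 404] in glaucoma and 264 CPM [249, 279] in normal (0.57, uncalled). Clusters 1 and 11 lay on opposite sides of 0. Cluster 1 was called higher, 415 CPM [402, 428] in glaucoma and 185 CPM [161, 211] in normal (1.17 [0.97, 1.37]), where 3.07% of 6847 genes were called higher. Cluster 11 had 236 CPM in glaucoma, 36.7% of it from 1 barcode, and 302 CPM in normal.

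At resolution 2 cluster 1 was split mostly into a group with 886 glaucoma and 157 normal cells, where WIF1 was 238 and 166 CPM, and an MGARP, SMPX and COL8A2-led group of 615 glaucoma and 16 normal cells, where WIF1 was 679 CPM in glaucoma. In glaucoma WIF1 was thus higher in the group with 16 normal cells than in the larger group, which itself stood higher in glaucoma than in normal. The part of this split in the cluster 1 ratio was not tested. DKK3 stood at 30.8 CPM in the MGARP-led group, SFRP2 at 107 CPM and RSPO3 at 261 CPM.

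Non-myelinating Schwann cell-like cells, glia that do not form myelin, had 458 CPM of WIF1 in glaucoma and 333 CPM in normal (0.46). Their 2 main fine clusters went the other way: 586 and 1328 CPM in one with 686 glaucoma and 70 normal cells, and 129 and 237 CPM in one with 86 and 387 cells. Stromal fibroblast-like cells had 67.7 CPM in glaucoma and 88.2 CPM in normal, mostly in cluster 3 (96.6 and 140 CPM). The direction of that stromal ratio (-0.38) was kept in 6 of 14 settings, and at resolution 0.5 it was 2.07. At resolution 2 a MFAP5 and MIA-led stromal cluster of 129 glaucoma and 119 normal cells had 647 and 456 CPM. That fine cluster was also rich in SFRP2, 851 and 715 CPM.

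SFRP4 and WIF1 were called higher in muscle-like cells, the contractile cells with DES and MYH11: SFRP4 at 34.2 CPM in glaucoma and 5.45 CPM in normal, and WIF1 at 58.8 CPM in glaucoma and 18.5 CPM in normal. Of 6169 genes, 3.08% were called higher there. The log2 ratios were 2.65 and 1.67, but WIF1 was -0.73 with equal cluster weights and SFRP4 0.42, uncalled, with every deposited barcode. In the immune cells taken as background SFRP4 also stood higher in glaucoma, at 16.7 CPM against 3.28 CPM in normal. However, 46.2% of the 52 glaucoma UMIs came from 1 barcode, and the normal value rests on 3 UMIs. All 8 meshwork markers were higher in the muscle-like cells of glaucoma, 3840 CPM summed against 1999 CPM in normal. The 10 stromal markers there summed to 388 CPM against 132 CPM, with 8 of 10 higher. The part of these markers in the muscle-like ratios was not tested. Most WIF1 of the class lay in cluster 18 (ACTA2, CNN1, CCK, CYTL1), 68 glaucoma and 20 normal cells with 330 and 592 CPM.

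RSPO3, which raises the response to Wnt through LGR receptors, lay mainly in meshwork-like cells. Meshwork-like cells held 91.6% of its UMIs in glaucoma and 63.5% in normal, and cluster 1 alone 88.7% and 39.6%. The class stood at 225 CPM [216, 234] in glaucoma and 86.0 CPM [77.9, 94.8] in normal (log2 ratio 1.39 [1.24, 1.54]).

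Within clusters 1 and 11 the libraries lay closer. Cluster 1 had 248 CPM [238, 258] in glaucoma and 210 CPM [185, 237] in normal (0.24 [0.05, 0.43]), with a UMI in 62.8% and 49.4% of cells, and cluster 11 had 52.5 CPM [40.3, 67.1] and 42.4 CPM [35.7, 49.98]. Cluster 15, with 12 UMIs in each library and so too few to be compared, had 135 CPM [69.9, 236] in glaucoma and 62.0 CPM [32.01, 108] in normal. Cluster 1 therefore held several times more RSPO3 than cluster 11 in each library, and the call of the class goes with the larger part of it that cluster 1 forms in glaucoma. Non-myelinating Schwann cell-like cells had 61.5 and 87.5 CPM, level with meshwork-like cells in the normal library. RSPO3 was at 0 UMIs in vascular endothelium-like cells of both libraries.

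RSPO1, the other R-spondin, was low. It stood at 41.5 CPM [37.7, 45.5] in glaucoma and 56.4 CPM [49.9, 63.6] in normal meshwork-like cells (log2 ratio -0.44), at 31.7 and 37.6 CPM in stromal fibroblast-like cells and at 63.9 and 101 CPM in cluster 9. Unlike RSPO3 it was not lower in cluster 11 (57.5 and 58.0 CPM) than in cluster 1 (39.4 and 54.5 CPM), and in glaucoma it was higher there. Muscle-like cells had 3.23 CPM in glaucoma and 0.97 CPM in normal. Under 2 of 14 settings stromal fibroblast-like cells became its highest class.

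**Figure D4:**
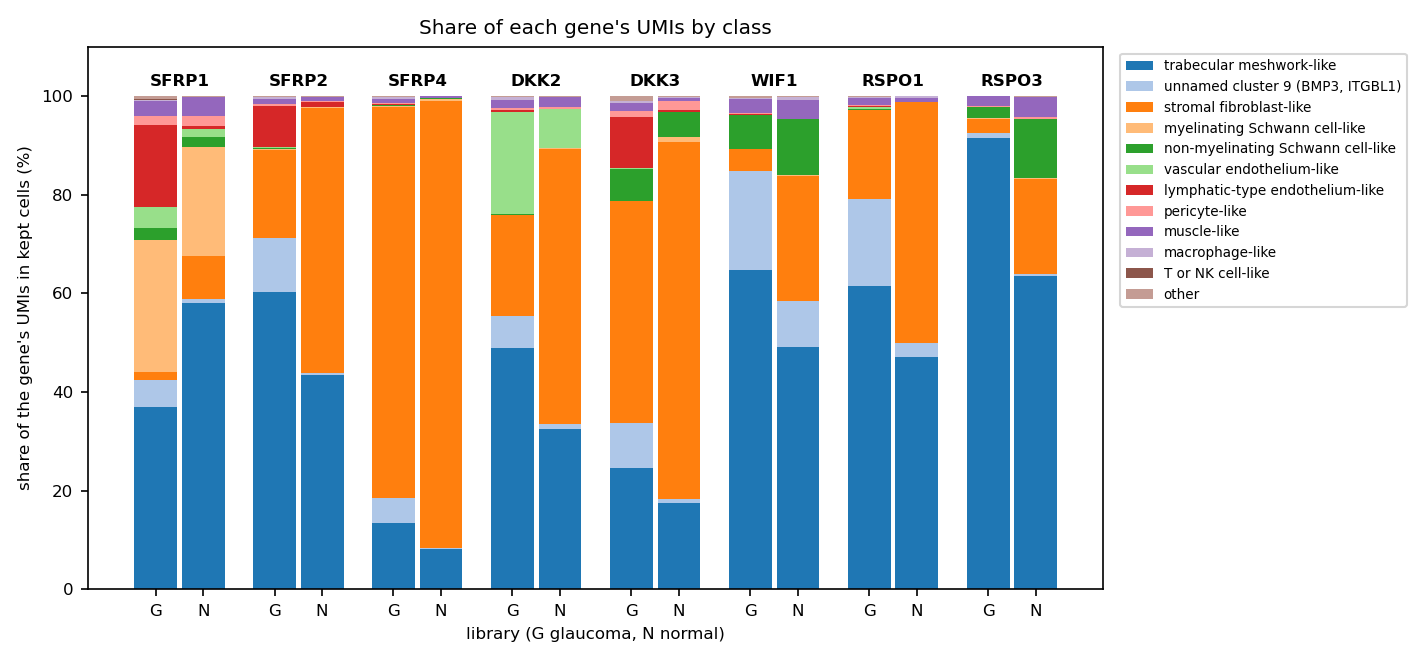
Share of each gene's UMIs, among kept cells of a library, that lay in each class, glaucoma bar left of normal bar. The shares mix level, depth and number of cells per class; RSPO3 lies mostly in meshwork-like cells (91.6% and 63.5%), SFRP4 in stromal fibroblast-like cells (79.4% and 90.7%), and DKK2 is divided between meshwork, stroma and vessels.

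Across clusters the patterns of the genes differed. Over 33 profiles of cluster and library from 19 clusters, the Pearson correlation of log2(CPM + 10) between SFRP2 and RSPO1 was 0.87, the highest of any pair, and RSPO3 with WIF1 reached 0.77. SFRP1 stayed at 0.33 or below with every other member. The named genes most like each member among 9389 were WASF3 for SFRP1 (0.86), EGFL6 for SFRP2 (0.92), BICC1 for SFRP4 (0.91), LDB2 for DKK2 (0.87), CYBRD1 for DKK3 (0.89), COL16A1 for WIF1 (0.87), ITGBL1 for RSPO1 (0.94) and ARSI for RSPO3 (0.92). The next 2 places were DUSP14 and TAX1BP3 for SFRP1, ITGBL1 and FBLN1 for SFRP2, C1S and CCL26 for SFRP4, CLU and FAT4 for DKK2, COL1A2 and TIMP1 for DKK3, KRT14 and ARSI for WIF1, SYTL5 and EGFL6 for RSPO1, and LYPD6B and THBS1 for RSPO3. These profiles share libraries and differ in depth, so the values are descriptions.

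Many cells of both stromal and meshwork classes held UMIs of more than 1 of these genes. At 1000 UMIs per cell, 31.6% of glaucoma and 40.8% of normal meshwork-like cells held UMIs of 2 or more of the 9 genes, and 42.6% and 45.8% of stromal fibroblast-like cells did. In macrophage-like cells the shares were 0.48% and 0.68%.

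Within clusters, of 343 ordered pairs with at least 25 cells positive for the first gene, the exact 95% intervals of the second gene's share lay apart in 21, above the other cells in 14 and below in 7. Because the pairs are ordered, the same genes can be counted in both orders, as SFRP1 and WIF1 were in cluster 1 of glaucoma. The count was not made for pairs of other genes. Whether 21 of 343 is more than other genes give was therefore not tested. With as few as 25 positive cells the intervals are wide, so overlap does not show that a pair is unlinked. SFRP1 and WIF1 were found together more often in cluster 11 of both libraries and in cluster 1 of glaucoma. WIF1 was detected in 32.3% of SFRP1-positive and 18.8% of the other cells of cluster 1 in glaucoma, but in 12.8% of 39 and 13.6% of 132 cells there in normal, and in cluster 11 in 25% and 4.55% in glaucoma and in 27.8% and 11.9% in normal. In stromal cluster 3, SFRP4 and WIF1 were found apart: WIF1 was detected in 3.57% of SFRP4-positive and 11.1% of the other glaucoma cells, and in 3.29% and 16% of normal cells. Finer groups within a cluster can differ in these genes, as WIF1 did between the fine groups of cluster 1. Their part in these shares was not tested.

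Of 30 measured genes on the other pathway lists 3.33% were called higher and 6.67% lower in meshwork-like cells, beside 5.08% and 5.6% of all genes. In stromal fibroblast-like cells 3.23% of 31 were called higher and 12.9%, or 4 genes, lower, beside 2.08% and 3.97% of all genes. In meshwork-like cells, of 17 Wnt ligand and secretion genes in the files 2 were measured and 0 called: WLS, the carrier that exports Wnt proteins, stood at 331 CPM in glaucoma and 290 CPM in normal, and WNT5A, a ligand of the beta-catenin-independent routes, at 110 and 105 CPM. Of 8 measured receptors 0 were called, with ROR1 (51.7 and 56.8 CPM) and RYK (50.1 and 57.3 CPM), both Wnt-binding kinase-like receptors, highest. Of the R-spondin receptors and receptor-removing ligases LGR4 (15.98 and 15.85 CPM) and ZNRF3 (6.17 and 11.2 CPM) were measured and uncalled.

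Of 5 other secreted modulators, SOSTDC1, a sclerostin-like BMP and Wnt antagonist, was called higher in meshwork-like cells, 52.2 CPM in glaucoma and 8.03 CPM in normal (log2 ratio 2.70 [2.23, 3.22]). The 2 of that list with the highest CPM were uncalled: FRZB, the frizzled-related protein also named SFRP3, at 442 and 383 CPM, and RSPO2 at 260 and 174 CPM. Of 9 measured genes of the beta-catenin route CTNNB1, which encodes beta-catenin, was called lower, 8.88 CPM in glaucoma and 19.0 CPM in normal (-1.10). That call rests on 95 and 90 UMIs. CTNNB1 was also lower in glaucoma in vascular endothelium-like (68.9 and 107 CPM), non-myelinating Schwann cell-like (25.6 and 53.0 CPM) and muscle-like cells (8.39 and 12.8 CPM). It was higher in lymphatic-type endothelium-like cells (86.9 and 67.2 CPM) and cluster 9 (17.0 and 6.34 CPM), with few normal UMIs in each. CSNK1A1 (146 and 204 CPM) and APC (39.2 and 60.2 CPM), parts of the beta-catenin destruction machinery, were uncalled. Of 5 measured Wnt target genes MYC was called lower, 61.8 and 200.1 CPM (-1.70), and CCND1 (30.5 and 34.0 CPM) was uncalled. The calls of SOSTDC1, CTNNB1 and MYC were not tested with equal cluster weights or under the other alternative settings.

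Stromal fibroblast-like cells had the same members at the top of most lists, with WLS at 248 and 277 CPM, WNT5A at 70.8 and 130 CPM and FRZB at 92.1 and 103 CPM in glaucoma and normal cells. Of 8 measured receptors LRP5, the co-receptor, was called higher (28.3 CPM in glaucoma and 13.8 CPM in normal, log2 ratio 1.04) and ROR1 lower (21.3 and 50.4 CPM, -1.25); RYK (70.6 and 87.4 CPM) and FZD4 (32.6 and 43.1 CPM) had the highest levels. GPC3, a glypican that binds Wnt, was called lower (7.74 and 24.3 CPM, -1.65) among 6 other secreted modulators, with GPC4 at 52.7 and 78.8 CPM uncalled. CTNNB1 (14.5 and 30.5 CPM, -1.07) and MYC (21.0 and 94.3 CPM, -2.17) were called lower, each the sole call of its list. The CTNNB1 call rests on 60 glaucoma and 224 normal UMIs, and lower CTNNB1 in glaucoma was not confined to stroma and meshwork. The R-spondin receptor list had 2 measured and 0 called genes, LGR4 (20.3 and 29.0 CPM) and ZNRF3 (15.5 and 17.7 CPM). The calls of LRP5, ROR1, GPC3, CTNNB1 and MYC in stromal fibroblast-like cells were likewise not tested under any alternative setting.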

How the data were processed

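The deposited matrices hold raw counts of UMIs per gene and cell barcode, 1 for each library (10x 3' chemistry version 3 per the labels). The authors counted reads with Cell Ranger, version 6.0.0 per the file headers and version 4.0 per the submitters' processing notes, which also name Seurat 3.0; the genome build is not given in the sources used here. Of 24037 features, 15580 were named in the files, 873 took a symbol from a gene table and 7584 had none.

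Barcodes with at least 500 genes and at most 20% mitochondrial UMIs were kept (8633 of 10624 glaucoma, 5430 of 7028 normal). Scrublet-type calling removed 332 and 66 doublets, 3.85% and 1.22%, below the 6.91% and 4.34% expected from cell numbers, so doublets remain. Counts were scaled to 10000 UMIs, logged, and clustered with scanpy 1.11.5 and igraph 0.11.9 (1995 variable genes without the 9 members, 30 components, 15 neighbours, Leiden resolution 1). Clusters were named from marker lists, at least 3 markers at 2-fold; that meshwork takes precedence over stroma where it leads the top 10 genes was settled after the clusters were seen. Ratios used summed counts with exact conditional binomial intervals (scipy 1.17.1) and were checked on simulated counts. Precision follows the UMIs in each sum, and intervals cover counting error only.

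All 9 members are named. For the other Wnt lists every called gene and the 2 with the highest CPM are named, and for likeness the 3 with the highest correlation. Members and lists were chosen with earlier results of these data known. In all, 14 alternatives were tried: other clusterings, filters, depth thinning, scalings, cluster weights and left-out barcodes.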

Additional observations from a re-analysis of the deposited data

Results flagged for a closer look

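For 3 of the genes the call went one way in one cluster and the other way in another; the difference between clusters was not tested, and it rests on 1 library per group. WIF1 was called higher in glaucoma in meshwork-like cluster 1 (log2 ratio 1.17) and lower in the unnamed cluster 9 (-1.18). SFRP2 was called higher in cluster 9 (1.14) and lower in the lymphatic-type endothelium-like cluster 10 (-1.16). SFRP4 was called higher in cluster 9 (2.20) and lower in meshwork-like cluster 11 (-1.03). The normal library had 59 cells in cluster 9 and 33 in cluster 10, so each of these pairs has an arm with few cells.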

How the results depend on the processing

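Over 29 ratios and 14 settings, 281 of 406 values moved by less than the 95% counting interval, 120 moved by more and 5 were called ratios that turned direction. The 281 include the setting without a minimum count, which could not move any of the 29 ratios. Counting uncalled ratios too, direction turned in 34 values from 12 ratios, 27 of them in stromal fibroblast-like cells. SFRP1 stayed lower in meshwork-like cells throughout (-1.87 to -1.14), and no setting changed the highest named class (at least 50 cells in each library) of SFRP1, SFRP2, SFRP4, DKK2, DKK3, WIF1 or RSPO3. Dropping the minimum count or centring the ratios on the median gene could not change the highest class. In stromal fibroblast-like cells the number called lower went to 0 with members kept among the variable genes, doublets kept, every deposited barcode, the stricter filter, separate clustering, balanced neighbours and resolutions 0.5 and 2; the number called higher was 1 with every barcode and with separate clustering, and 2 with balanced neighbours and resolution 0.5. SFRP1 in that class was reversed with separate clustering (0.14), balanced neighbours (1.10), resolution 0.5 (1.17) and resolution 2 (0.29). In meshwork-like cells 1 gene was called lower with the stricter filter and with the same cluster weights, which also left 0 called higher and reversed WIF1 in muscle-like cells (-0.73). The cause was not tested. No paired analysis was possible because each group has 1 library, and for the same reason no library could be left out. Depth limits DKK1 and RSPO1, and classes with few cells in 1 library.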
